A study of Rattus norvegicus with 6 samples.

Results

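Aggrecan and versican, the link proteins that fasten them to hyaluronan, and the enzymes that make and break hyaluronan were followed through 10 genes in RNA of rat tail discs. The genes were taken by name from the count table. They were the hyalectans Acan and Vcan, the link proteins Hapln1 and Hapln3, the hyaluronan synthases Has1, Has2 and Has3, and the degradation genes Hyal1, Hyal2 and Cemip. All 10 were found among the 30562 genes of the table, and 9 passed the filter on low counts, Hyal1 being the gene that did not.

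Hyaluronan is a long unbranched sugar polymer that is spun out through the plasma membrane by its synthases. Hyalectans bind it through their amino-terminal domain, link proteins lock that bond, and the sulfated chains of aggrecan hold the water with which the disc bears load. Loss of aggrecan from the nucleus pulposus and inner annulus is a textbook feature of disc degeneration.

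RNA of whole disc tissue was sequenced from 3 rats per group, to ask how the transcriptome of an injured disc differed after an intradiscal treatment. The rats were wild-type, male, 12-week-old Sprague-Dawley animals, and in both groups a tail disc had been punctured with an 18 G needle. The treated group was injected with 10 μL of AF-PTK@LEV@SPP1 at 1 mg/kg of siRNA from 24 h after surgery. This is a hybrid of liposomes and outer membrane vesicles from a detoxified bacterium, with a peptide that binds the annulus fibrosus on a linker cut by reactive oxygen species, and it carries an siRNA designed against mouse Spp1. The control group received 10 μL of PBS, and both were followed for 8 weeks by the description in the methods. The sample records differ from this, and give an untreated control, a treatment of 14 days and macrophages sorted for F4/80 and CD11b from mouse discs. Col2a1, the main collagen of cartilage, stood at 14042 to 32269 normalized CPM (read counts scaled to a common library size), while Adgre1, which encodes F4/80, stood at 15.5 to 43.4.

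The table's columns for the control carry neither PBS nor control in their names. They were taken as the PBS libraries because the other 3 columns bear the treatment name and the PBS group also went by the name IVDD, and all directions rest on this. The PBS libraries 1, 2 and 3 held 17942989, 16565291 and 17489851 counts. Those with the label AF-PTK@LEV@SPP1 (here AF-PTK) held 17074981, 15560728 and 17855184. A gene with 3 counts then stood at 0.156 to 0.197 normalized CPM, a floor that covers counting error alone. PBS libraries 2 and 3 differed by little more than sampling noise. Over 14393 genes their counts varied 1.33 times as much as counting alone would give, against 51.3 to 107 times in the other 5 pairs within a group. The pair was therefore counted as 1 sample, which left n = 2 distinct PBS samples against n = 3. Calls that change when all 6 libraries are kept apart are given for both fits. The fit of 6 libraries treats the pair as 2 separate samples, so its p-values are likely too small.

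The siRNA is aimed at Spp1, which was at 8222, 4499 and 4496 normalized CPM in the PBS libraries and at 8146, 6955 and 8537 in AF-PTK. No reduction of the target was seen under the labels as given (log2 fold change 0.31 ± 0.37 SE, edgeR adjusted p = 0.628), and every direction given here is relative to those labels.

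Cemip, whose product binds hyaluronan and is needed for its breakdown outside lysosomes, was the only one of the 9 tested genes that passed an adjusted p of 0.05 in edgeR's quasi-likelihood test with Benjamini-Hochberg adjustment over all genes, and it was 6.80-fold lower in AF-PTK. Across all genes tested 575 of 15537, or 3.7%, passed, of which 175 (1.13%) were higher and 400 (2.57%) lower. The median log2 fold change was -0.51 over the 9 genes and 0.046 over all genes tested. In 5 of the 9 genes, Hapln1, Has1, Has2, Hyal2 and Cemip, every AF-PTK library lay below every PBS library, and 41.9% of all genes tested had groups that did not overlap. With the 6 libraries kept apart, 4 of the 9 passed, all lower in AF-PTK, against 2727 of 15042 genes or 18.1% in either direction (8.2% higher and 9.93% lower). A count over so few genes was not read as a property of the set.

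The number of calls rested on single libraries. It was 280 across the table without PBS 1 and 113 without AF-PTK 1. Without AF-PTK 2 or AF-PTK 3, edgeR called 0 genes, with 3109 and 2699 genes at an unadjusted p under 0.05, limma-voom called 0 in both cases, and DESeq2 called 1418 and 1153.

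**Figure D1:**
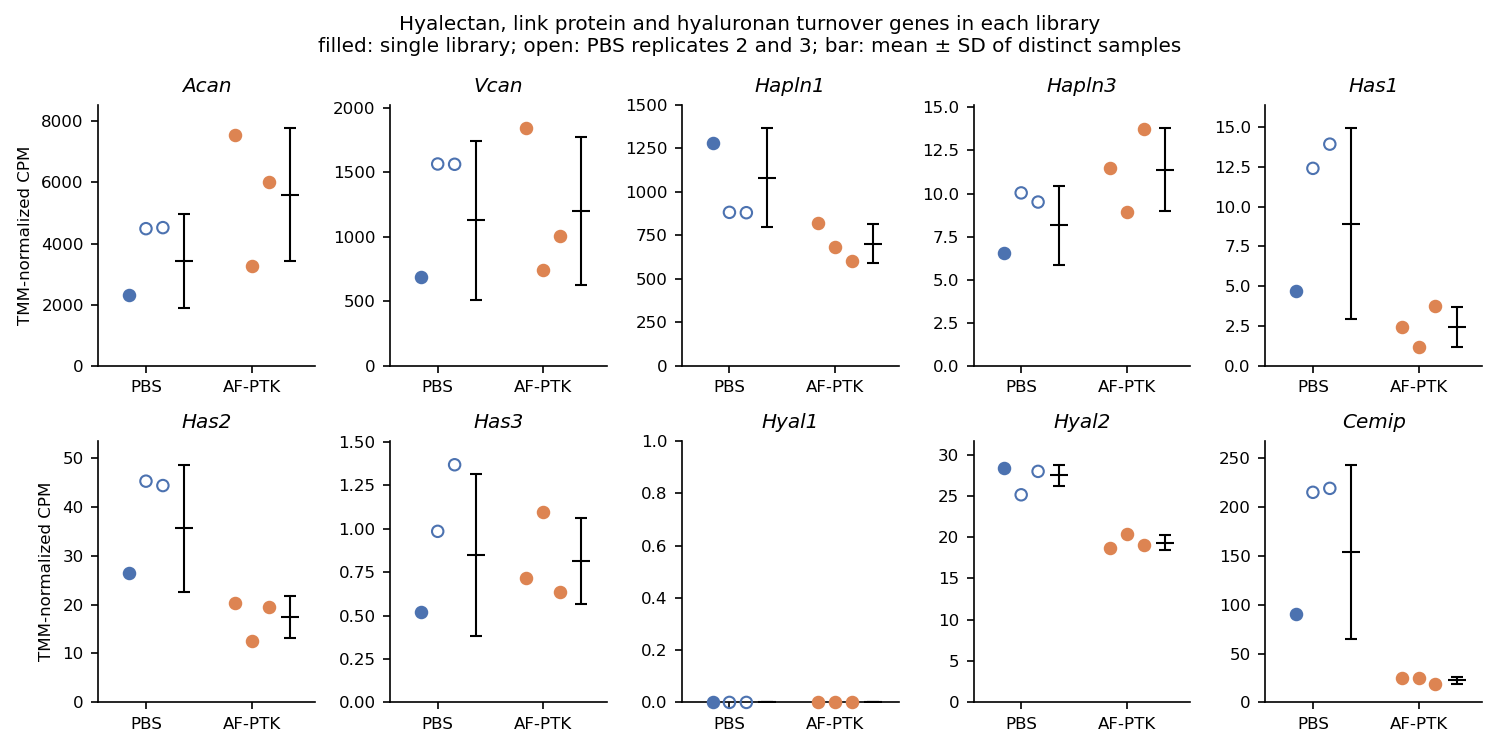
Normalized CPM (vertical axes, linear from 0, a separate scale for each gene) of the 10 genes in the 3 PBS and 3 AF-PTK libraries. Filled points are single libraries, open points are PBS 2 and 3, which count as 1 sample, and bars are the mean ± SD of distinct samples (n = 2 PBS, n = 3 AF-PTK). Cemip lies at 90.6 to 219 in PBS and at 18.6 to 24.7 in AF-PTK, whereas the groups overlap in Acan and Vcan, and Hyal1 has 0 counts in all 6 libraries.

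Acan encodes aggrecan, the large proteoglycan that gives the disc its swelling pressure. Its level was 2333, 4485 and 4519 normalized CPM in PBS 1, 2 and 3, and 7534, 3249 and 6001 in AF-PTK 1, 2 and 3. The highest values were those of AF-PTK 1 and 3, but AF-PTK 2 lay under PBS 2 and 3, so the groups overlapped. The means were 5595 ± 2171 (SD, n = 3) in AF-PTK and 3418 ± 1534 (SD, n = 2) in PBS. The log2 fold change of 0.71 ± 0.50 (SE) did not pass the test (edgeR adjusted p = 0.412), and its adjusted p ran from 0.310 to 0.779 over 12 alternative settings. The log2 fold change was 0.31 without PBS 1 and 0.41 without AF-PTK 1, and 0.99 without AF-PTK 2.

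Vcan encodes versican, a hyalectan of looser, cell-rich and provisional matrix. It was at 692, 1564 and 1562 normalized CPM in PBS and at 1841, 741 and 1007 in AF-PTK. Here too the groups overlapped, and PBS 1 and AF-PTK 2 were the low libraries in both hyalectans. The log2 fold change was 0.09 ± 0.53 (SE), with an edgeR adjusted p of 0.934, and its sign turned to -0.39 without PBS 1 and to -0.40 without AF-PTK 1. The means, 1196 ± 574 (SD, n = 3) in AF-PTK and 1128 ± 615 (SD, n = 2) in PBS, were closer than the spread within either group.

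The ratio of both hyalectans within a library needs no normalization. For each Vcan count there were 3.37, 2.87 and 2.89 Acan counts in PBS, and 4.09, 4.38 and 5.96 in AF-PTK. Every AF-PTK library thus had more Acan per Vcan than any PBS library. The log2 ratio was 2.25 ± 0.29 (SD, n = 3) in AF-PTK and 1.64 ± 0.16 (SD, n = 2) in PBS, a difference of 0.61 with p = 0.1 in a two-sided exact permutation test. That is the smallest p that 3 samples against 2 can give, so the test could not reach 0.05. The difference stayed between 0.443 and 0.720 when single libraries were left out.

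Over the 5 distinct samples, the log2 CPM of Acan was most like that of Kdm4c, Ccdc88a, Bmp6, Smad4 and Cltb, with Pearson's r of 0.996 to 0.998. For Vcan these genes were Tmem63a, Ano10, Myh10, Kdm5b and Dip2c, with r of 0.988 to 0.997. Of 4955 protein-coding genes compared, 78 exceeded an r of 0.95 for Acan and 74 for Vcan. The named genes were picked as the highest of these over only 5 samples, and shared regulation was not tested.

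Hapln1 encodes the cartilage link protein, which holds aggrecan on hyaluronan. It stood at 1281, 881 and 879 normalized CPM in PBS and at 820, 684 and 602 in AF-PTK. All AF-PTK libraries lay below all PBS libraries, but AF-PTK 1 was close to PBS 2 and 3. The means were 702 ± 111 (SD, n = 3) and 1080 ± 283 (SD, n = 2). Its log2 fold change of -0.62 ± 0.24 (SE) did not pass (edgeR adjusted p = 0.195, and 0.0735 to 0.501 over the alternatives). The log2 fold change was -0.33 without PBS 1 and -0.78 without AF-PTK 1. Aggrecan and its link protein thus had fitted changes of opposite sign, and neither was called.

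Hapln3, a link protein of wider tissue distribution, had 6.55, 10.04 and 9.51 normalized CPM in PBS and 11.5, 8.94 and 13.7 in AF-PTK. The groups overlapped, with PBS 1 lowest and AF-PTK 3 highest. At a log2 fold change of 0.48 ± 0.28 (SE) it did not pass, with an edgeR adjusted p of 0.336. The log2 fold change was 0.22 without PBS 1 and 0.63 without AF-PTK 2. The span of Mfge8 lies wholly within that of Hapln3 on the same strand, and Mfge8 held 15 counts in all libraries together. How reads shared by overlapping genes were assigned is not given in the sources used here, so the counts of Hapln3 are uncertain.

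Each hyalectan gene lies beside a link protein gene, a textbook feature of the family that the table's coordinates also show. Acan (ENSRNOG00000028992, chromosome 1, 132981582 to 133043627, plus strand) ends 2840 bases before Hapln3 (ENSRNOG00000022321, 133046467 to 133080177, minus strand). Vcan (ENSRNOG00000029212, chromosome 2, 20761718 to 20860637, minus strand) lies 67.9 kb from Hapln1 (ENSRNOG00000032002, 20631640 to 20693777, plus strand). The genome build of these coordinates is not given in the sources used here, since the mm10 build in the submitters' processing notes is a mouse build and the gene identifiers are those of rat. None of these 4 genes was called.

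The other hyalectans and link proteins, Ncan, Bcan, Hapln2 and Hapln4, are best known from brain. Ncan was too low to be tested, and of the other 3 genes 0 were called by edgeR, 0 had an unadjusted p under 0.05, and DESeq2 and limma-voom called 0. Bcan had 105, 2 and 4 counts in PBS and 56, 37 and 11 in AF-PTK, and Hapln4 had 7 to 36 counts in every library.

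Has2 encodes the synthase of long hyaluronan chains that is essential in the embryo and is the synthase most used by chondrocytes. It was at 26.4, 45.2 and 44.3 normalized CPM in PBS and at 20.3, 12.5 and 19.6 in AF-PTK. No AF-PTK library reached the lowest PBS library, which was PBS 1. The means were 17.5 ± 4.30 (SD, n = 3) and 35.6 ± 13.0 (SD, n = 2), and the log2 fold change of -1.03 ± 0.31 (SE) did not pass in edgeR (adjusted p = 0.129). It passed with the 6 libraries kept apart (edgeR adjusted p = 0.0376) and in DESeq2 (adjusted p = 0.0340), and over all alternatives the adjusted p reached 0.268.

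Has1, a synthase of low activity that is induced by cytokines in fibroblasts, had 4.68, 12.4 and 13.9 normalized CPM in PBS, from 90, 189 and 224 counts. In AF-PTK it had 2.44, 1.22 and 3.74, from 41, 20 and 65 counts. As in Has2, PBS 1 was nearest to the AF-PTK libraries and AF-PTK 2 was lowest. The log2 fold change was -1.86 ± 0.62 (SE) and did not pass in edgeR (adjusted p = 0.151). It passed narrowly with 6 libraries kept apart (edgeR adjusted p = 0.0489) and in DESeq2 (adjusted p = 0.0410), with a highest value of 0.262 among the alternatives.

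Has3, which makes shorter chains, was near the limit of measurement, with 10, 15 and 22 counts in PBS and 12, 18 and 11 in AF-PTK. These correspond to 0.520 to 1.37 and 0.633 to 1.09 normalized CPM, which overlap. The log2 fold change of -0.09 ± 0.52 (SE) did not pass (edgeR adjusted p = 0.932) and changed sign, to 0.13 without PBS 3 and 0.07 without AF-PTK 3. The end of Has3 overlaps Chtf8 on the opposite strand, and whether strand was used in counting is not given in the sources used here.

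Cemip had 90.6, 215 and 219 normalized CPM in PBS 1, 2 and 3, from 1743, 3275 and 3523 counts. In AF-PTK 1, 2 and 3 it had 24.5, 24.7 and 18.6, from 412, 406 and 324 counts. The AF-PTK libraries were close to each other and all far under the lowest PBS library, while PBS 1 stood well below the PBS pair. The means were 22.6 ± 3.44 (SD, n = 3) in AF-PTK and 154 ± 89.3 (SD, n = 2) in PBS, and the log2 fold change was -2.77 ± 0.39 (SE) with an edgeR adjusted p of 0.0353.

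The fall of Cemip kept its size in all 12 alternatives, at -3.27 to -2.59 on the log2 scale, and its call in 9 of them. The call was lost without AF-PTK 1, 2 or 3, at edgeR adjusted p of 0.0756, 0.104 and 0.159. Without PBS 1, where the PBS pair alone stood for the control group and was assumed to vary like the AF-PTK samples, the edgeR adjusted p was 0.0240.

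Hyal2 encodes a membrane-anchored hyaluronidase that cuts long chains at the cell surface. It was at 28.4, 25.1 and 27.97 normalized CPM in PBS and at 18.7, 20.4 and 19.0 in AF-PTK. Both groups were tight and did not overlap, with means of 19.4 ± 0.89 (SD, n = 3) and 27.5 ± 1.30 (SD, n = 2). The log2 fold change of -0.51 ± 0.11 (SE) missed the threshold in edgeR (adjusted p = 0.0770). It passed with 6 libraries kept apart (edgeR adjusted p = 0.0230) and in DESeq2 (adjusted p = 0.00388), and its highest adjusted p over the alternatives was 0.238.

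Hyal1, the lysosomal hyaluronidase, had 0 counts in all 6 libraries, which at 3 counts allows up to 0.156 to 0.197 normalized CPM for reads assigned to it. Its annotated span (ENSRNOG00000015858, chromosome 8, 108250667 to 108260210) lies wholly within that of Hyal3 on the same strand (ENSRNOG00000070382, 108250667 to 108260647). Hyal3 held 537 to 1053 counts per library. Naa80, which lies inside the same stretch, had 0 counts as well. How reads shared by overlapping genes were assigned is not given in the sources used here, so the level of Hyal1 could not be read and the counts of Hyal3 are uncertain.

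Of the other hyaluronan degradation genes, 4 of 6 were tested and 3 fell and none rose, against 2.57% and 1.13% of all genes tested, and the median log2 fold change of the 4 was -0.84 (0.046 over all genes). Counts in this and the following lists cover few genes and were not read as a property of a list. Gusb, the lysosomal β-glucuronidase, was at 119 to 179 normalized CPM in PBS and 55.4 to 70.2 in AF-PTK (log2 fold change -1.30 ± 0.22 SE, edgeR adjusted p = 0.0476, not passed in limma-voom at 0.0517). Cemip2, a transmembrane relative of Cemip, was at 78.9 to 82.9 and at 39.1 to 45.4 (-0.97 ± 0.11 SE, edgeR adjusted p = 0.0251). Hyal3, with the uncertainty given for its locus, had 54.7 to 57.0 and 32.3 to 36.2 (-0.72 ± 0.10 SE, edgeR adjusted p = 0.0370). Hexa, which encodes a lysosomal hexosaminidase chain, was at 126 to 151 and 88.6 to 110 and did not pass (edgeR adjusted p = 0.154). Hyal4 and Spam1, the sperm hyaluronidase, were too low to be tested.

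Among the hyaluronan receptors edgeR called 1 of 6 lower and none higher, against 2.57% and 1.13% of all genes tested. Their median log2 fold change was 0.05, and DESeq2 called 2. With 6 libraries kept apart, edgeR called 1 lower and 1 higher, against 9.93% and 8.2% of all genes in that fit. Cd44, the main receptor for hyaluronan on chondrocytes and leukocytes, was at 503, 561 and 574 normalized CPM in PBS and at 140, 107 and 128 in AF-PTK. The groups were wide apart and each was narrow, with a log2 fold change of -2.09 ± 0.17 (SE) and an edgeR adjusted p of 0.0174. Stab1, a scavenger receptor of macrophages and sinusoidal endothelium, overlapped between the groups, at 24.4 to 49.3 in PBS and 31.7 to 50.1 in AF-PTK (edgeR adjusted p = 0.847).

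Of the hyaluronan-binding and heavy chain genes 5 of 8 were tested. Of these 2 fell and 1 rose, against 2.57% and 1.13% of all genes tested, with a median log2 fold change of 1.42. Tnfaip6 encodes TSG-6, an inflammation-induced protein that transfers heavy chains onto hyaluronan. It was at 61.4, 229 and 228 normalized CPM in PBS and at 8.09, 4.99 and 12.4 in AF-PTK, with PBS 1 again nearest to AF-PTK, and its log2 fold change was -4.09 ± 0.67 (SE, edgeR adjusted p = 0.0443, not passed in limma-voom at 0.0646). Ptx3, a pentraxin that joins the heavy chain complexes, was at 25.4 to 29.6 in PBS and 6.38 to 9.45 in AF-PTK (-1.75 ± 0.21 SE, edgeR adjusted p = 0.0260). Itih5, of the heavy chain family, moved the other way, from 37.6, 41.3 and 43.1 in PBS to 114, 97.8 and 109 in AF-PTK (1.42 ± 0.13 SE, edgeR adjusted p = 0.0196). Itih2, Itih4 and Ambp were too low to be tested.

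Of the 7 genes for hyaluronan precursors, 1 fell and none rose, against 2.57% and 1.13% of all genes tested. Their median log2 fold change was -0.40. Ugdh, which makes the UDP-glucuronic acid used by the synthases, was at 136, 163 and 163 normalized CPM in PBS and at 89.9, 70.5 and 76.3 in AF-PTK. Its log2 fold change of -0.93 ± 0.16 (SE) lay just past the threshold (edgeR adjusted p = 0.0477) and did not pass in limma-voom (adjusted p = 0.0560). Gfpt1, the entry enzyme of the hexosamine pathway, was at 132 to 181 in PBS and 142 to 222 in AF-PTK (edgeR adjusted p = 0.620), and Ugp2, which makes UDP-glucose, at 151 to 154 and 131 to 234 (edgeR adjusted p = 0.732).

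Of 7 proteinases of the ADAMTS family that cut hyalectans and were tested, 3 fell and none rose, against 2.57% and 1.13% of all genes tested, and the median log2 fold change was -1.06. Adamts4, a main aggrecanase, was at 37.8, 90.9 and 88.0 normalized CPM in PBS and at 8.38, 6.69 and 9.37 in AF-PTK (-2.97 ± 0.39 SE, edgeR adjusted p = 0.0316, not passed in limma-voom at 0.0538). Adamts5, the other main aggrecanase, was at 46.1, 79.0 and 76.7 and at 20.9, 19.9 and 19.8 (-1.62 ± 0.23 SE, edgeR adjusted p = 0.0367). Adamts1, which also cuts versican, was at 111, 196 and 192 and at 32.4, 25.2 and 42.3 (-2.19 ± 0.32 SE, edgeR adjusted p = 0.0381). In each of the 3 genes, as in Cemip and Tnfaip6, PBS 1 was the lowest PBS library and still above every AF-PTK library.

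Among 14 matrix partners and cartilage transcription factors, 1 fell and 1 rose, against 2.57% and 1.13% of all genes tested. Their median log2 fold change was -0.34. Matn4, a matrilin that bridges matrix components, was at 58.2, 88.5 and 91.1 normalized CPM in PBS and at 5.29, 4.26 and 2.93 in AF-PTK (-4.15 ± 0.32 SE, edgeR adjusted p = 0.0155). Sox6, a partner of Sox9 at cartilage enhancers, was at 8.53, 10.4 and 8.27 and at 32.8, 24.4 and 22.1 (1.57 ± 0.21 SE, edgeR adjusted p = 0.0341). Col2a1 was at 14042 to 21547 in PBS and 20530 to 32269 in AF-PTK and did not pass (0.57 ± 0.44 SE, edgeR adjusted p = 0.459), nor did Col11a1, at 2966 to 3662 and 2110 to 2921 (-0.38 ± 0.25 SE, edgeR adjusted p = 0.381).

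When single libraries were left out, the 13 called genes of these lists kept their direction, for example at log2 fold changes of -2.21 to -1.99 for Cd44, 1.34 to 1.48 for Itih5 and -4.44 to -3.95 for Matn4. Tnfaip6 moved most, from -4.09 to -4.75 without PBS 1, and many calls were lost. Of the 13 genes called, 6 passed without PBS 1 (Cd44, Tnfaip6, Adamts1, Adamts4, Adamts5 and Matn4), with the highest edgeR adjusted p of the 13 at 0.0954. Without AF-PTK 1, 3 passed (Cd44, Itih5 and Matn4), and the highest adjusted p was 0.0917. Without AF-PTK 2 or 3, where edgeR called 0 genes in all, their adjusted p was 0.0679 to 0.118 and 0.130 to 0.186. With the 6 libraries kept apart, edgeR also called Lyve1 and Itih3 higher and Hexa, Adamts15 and Matn3 lower. Of these all but Hexa are named after their values were seen. The gene annotation given with the counts lists Lyve1 as a pseudogene.

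**Figure D2:**
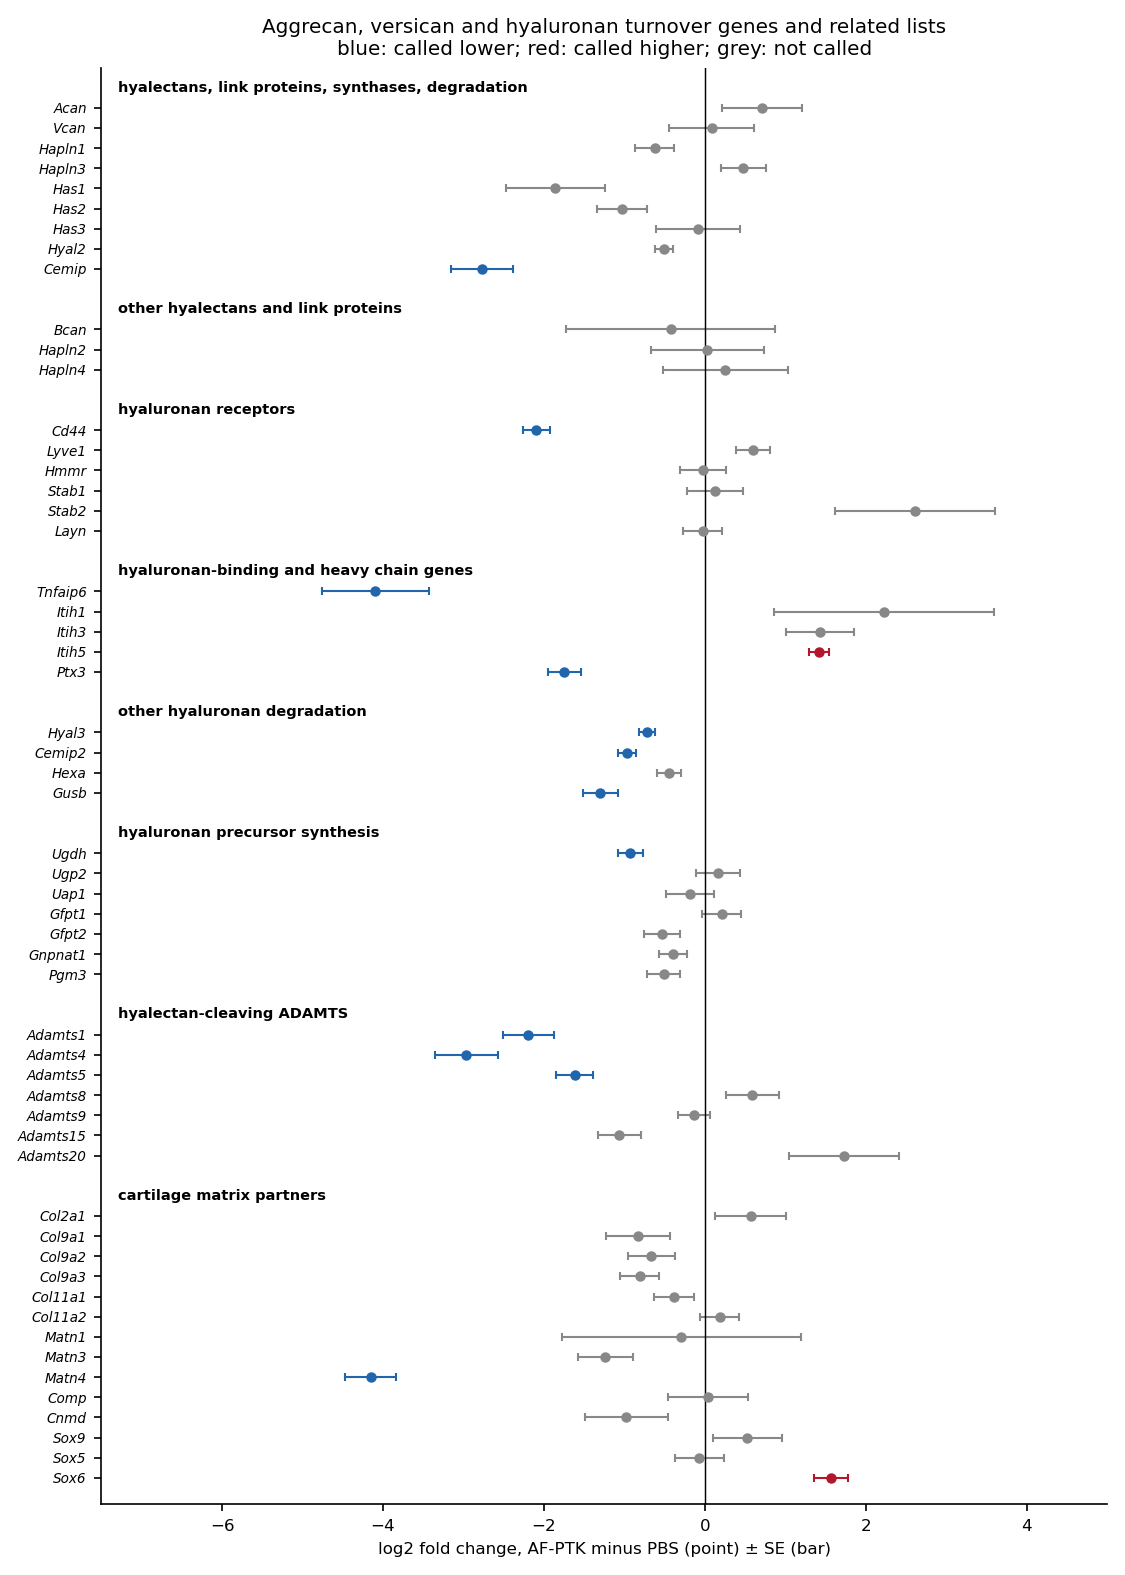
Log2 fold change between AF-PTK and PBS (horizontal axis, points, with bars of ± 1 SE) for the 9 tested hyalectan, link protein and hyaluronan turnover genes and for the tested genes of 7 related lists, from edgeR's quasi-likelihood fit of 5 distinct samples. Blue genes were called lower and red genes higher, and grey genes were not called. Cemip at -2.77 is the only called gene of the top group, and called genes of the lists run from Matn4 at -4.15 to Sox6 at 1.57.

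Markers of other cells and zones of the disc were summed per library, since in bulk tissue fewer cells of a type and less RNA per cell cannot be told apart. Of the nucleus pulposus and notochord list 6 of 8 names matched. Of 5 genes tested edgeR called 0, with 4 at an unadjusted p under 0.05, limma-voom called 0 and DESeq2 called 4. With 6 libraries kept apart, edgeR called 2 higher, against 8.2% of all genes in that fit. The list summed to 1556, 526 and 516 normalized CPM in PBS and 6461, 3689 and 3190 in AF-PTK, led by Car3, with Noto at 0 throughout. The chondrocyte list, led by Col2a1, summed to 17936, 23998 and 23784 and to 29140, 23057 and 34145, and the annulus and tendon list, led by Col1a1, to 34611, 50190 and 50443 and to 70296, 49919 and 57251. Of 8 genes in each, edgeR called 0, with 1 and 2 at an unadjusted p under 0.05, limma-voom called 0 and DESeq2 called 1 and 2. With 6 libraries kept apart, edgeR called 1 chondrocyte gene lower, against 9.93% of all genes, and 0 annulus genes. PBS 1 was the lowest PBS library in 8 of 8 annulus genes, as it was for Acan and Vcan, but in 2 of 8 chondrocyte genes, among them Col2a1, and it was the highest PBS library in the other 6. The part of tissue make-up in the levels of the hyalectans was not tested.

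Of the macrophage list edgeR called 1 of 9 genes lower, Cd68, against 2.57% of all genes tested. With 6 libraries kept apart it called 2 lower, against 9.93% of all genes in that fit. DESeq2 called 3 of the 9 and limma-voom called 1. The list, led by Lyz2, summed to 2922, 1980 and 1954 normalized CPM in PBS and 646, 1882 and 1920 in AF-PTK. Lyz2 alone was at 1855, 1292 and 1269 in PBS and at 275, 1252 and 1414 in AF-PTK. Of the 9 genes, 8 had a log2 fold change below 0 and 1 above, with a median of -0.88 (0.046 over all genes tested). Cd68 itself was at 152, 114 and 118 and at 28.8, 42.4 and 31.2 (-1.97 ± 0.22 SE, edgeR adjusted p = 0.0231). The endothelial list, led by Pecam1, summed to 505, 613 and 595 and to 380, 441 and 439, and the adipocyte list, led by Fabp4, to 419, 85.7 and 91.3 and to 1040, 1688 and 740. Of these 6 and 7 genes edgeR called 0, with 3 and 6 at an unadjusted p under 0.05, limma-voom called 0, and DESeq2 called 2 and 6. With 6 libraries kept apart, edgeR called 3 endothelial genes lower and 3 adipocyte genes higher, against 9.93% and 8.2% of all genes. The part of these cell types in the values of Cemip, Cd44, Tnfaip6 and the lysosomal genes was not tested.

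The list of fibroblast and synovial lining genes, led by Prg4, summed to 998, 1933 and 1923 normalized CPM in PBS and to 1209, 1101 and 1453 in AF-PTK. Of its 6 genes edgeR called 0, with 2 at an unadjusted p under 0.05, limma-voom called 0 and DESeq2 called 2. With 6 libraries kept apart, edgeR called 1 higher and 1 lower, against 8.2% and 9.93% of all genes. PBS 1 was the lowest PBS library in Prg4 and Pdgfra, as in Has1, Has2, Cemip and Tnfaip6, and the highest in the other 4 genes, and the part of these cells in the values of Has1, Has2, Cemip and Tnfaip6 was not tested. The osteoblast list, led by Ibsp, was highest in PBS 1, at 4727, 1875 and 1871 in PBS and 2242, 3214 and 1868 in AF-PTK. Blood and muscle genes were uneven among the AF-PTK libraries. Erythroid genes, led by Hba-a1, summed to 2405, 3249 and 3335 and to 2527, 20577 and 14158, neutrophil genes, led by S100a9, to 1067, 185 and 174 and to 266, 2505 and 3535, and muscle genes, led by Acta1, to 824, 1099 and 1112 and to 818, 8520 and 2145. In the osteoblast, erythroid, neutrophil and muscle lists edgeR and limma-voom called 0 of 7, 6, 7 and 5 genes, with 0, 1, 0 and 0 at an unadjusted p under 0.05, DESeq2 called 0, 3, 0 and 0, and edgeR with 6 libraries kept apart called 0 in each. The part of these tissues in the values of the hyaluronan genes was not tested.

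Promoter windows of 250 bases before the start were matched by symbol in RefSeq (GRCr8) for 7 of the 10 genes, with 8 windows in all, and Hapln3, Has2 and Has3 had no entry. The AP-1 motif TGANTCA, on either strand, was in 0 of the 8 windows and in 6.34% of 33469 windows of the same length. The NF-kB consensus was in the window of Acan alone among the 8 and in 6.33% of all windows. TATAAA was in the window of Cemip alone among the 8, against 12.9% of all, and none of the matches overlapped. The stretch of 30 bases around it is shown because Cemip was the gene called, at chr1:147471497-147471526 on the minus strand of GRCr8, 5′ to 3′ with the motif in capitals. The first base of the motif lies 31 bases before the annotated start.
Cemip: ccggaaggcgacTATAAAaagcgtcggctg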

How the data were processed

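Bulk RNA of disc tissue was measured in 6 libraries, 3 per group. The authors deposited counts, whole numbers of reads per rat gene without normalization. The submitters' processing notes list FastQC, Trimmomatic, HISAT2, featureCounts, DESeq2 and the build mm10, with no versions. Treated columns were matched to samples by treatment name and number, and the control columns by elimination, by IVDD as another name of the PBS group and by number. Genes were matched by name, and no listed name was carried by more than 1 gene.

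PBS replicates 2 and 3 were summed, because a chi-square check of genes whose counts in both libraries summed to 20 or more found 16 differing genes (0.111%), against 39.6% to 56.6% in the other 5 pairs. The test was that of edgeR 4.0.16 under R 4.3.3 (TMM normalization, filterByExpr at a minimum count of 10, quasi-likelihood test, Benjamini-Hochberg adjustment over all genes tested, calls at an adjusted p of 0.05 at any fold change). SE is the log2 fold change divided by the root of the F statistic. The common biological coefficient of variation was 0.302. A prior count of 2 entered log2 CPM. The scripts were tested on simulated counts.

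The genes and lists were chosen with earlier results of these data known, and 1 gene of the lists is not reported here and is left out of their counts. All genes of a list are counted, and those called and the 2 with the highest mean level are named. Genes of like pattern were the 5 protein-coding genes of mean log2 CPM of at least 5 with the highest Pearson's r.

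Alternatives were the 6 libraries kept apart, without and with a replicate block, DESeq2 1.42.0, limma-voom (limma 3.58.1), RLE size factors, no filter, and each library left out. The p-values of the gene tests set the difference between groups against the spread between these samples, which is estimated with information shared across genes.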

Additional observations from a re-analysis of the deposited data

How the results depend on the processing

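Of 108 values of the 9 tested genes under 12 alternatives, 93 kept their direction and their side of the threshold, 3 lost the call, 6 gained it and 6 changed sign. Among 252 values of the other 21 named genes these numbers were 192, 49, 1 and 10. Against 575 genes called (175 higher, 400 lower), edgeR called 2727 with 6 libraries kept apart (1233 and 1494) and DESeq2 2572 (1132 and 1440), and both called 4 of the 10 genes in place of 1. The numbers were 454 in limma-voom, 608 with RLE size factors and 699 without a filter. Leaving out single libraries gave 0 to 566 genes called, 0 to 170 higher, 0 to 396 lower, and 0 to 1 of the 10 genes. With fewer samples the fit has fewer degrees of freedom, and otherwise the cause was not tested. The median of all genes moved from 0.046 to 0.023 with RLE size factors.

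With a replicate block on 6 libraries, 741 genes were called, 307 higher and 434 lower. The numbers were not shown to pair the rats, since deviations from the group means correlated at -0.226 on average for the same number and 0.102 for different numbers. In this blocked fit Gusb (adjusted p = 0.0709) and Ugdh (adjusted p = 0.0592) were no longer called, the other named calls of the turnover genes and related lists were unchanged, and the nucleus pulposus markers Krt8, Krt18 and Cd24 were called higher (adjusted p = 0.0286, 0.0318 and 0.0406). Log2 fold changes turned to -0.12 for Vcan, 1.18 for Bcan and -0.0090 for Hapln4.

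Signs also changed in genes that were not called. With 6 libraries kept apart Vcan was at -0.0780 and Bcan at 0.0667, and in limma-voom Bcan was at 1.12 and Hapln4 at -0.0473. When single libraries were left out, Vcan ran from -0.40 (without AF-PTK 1; -0.39 without PBS 1) to 0.34, Has3 from -0.54 to 0.13 (without PBS 3; 0.0719 without AF-PTK 3), Bcan from -0.98 to 3.39 (without PBS 1; 0.0050 without AF-PTK 3), Hapln4 from -0.81 (without AF-PTK 3) to 0.62, Stab1 from -0.0599 (without AF-PTK 2) to 0.71, and Ugp2 from -0.16 (without AF-PTK 1) to 0.33. The cause of these changes was not tested. Counts reached down to 10 in Has3, 2 in Bcan and 7 in Hapln4, and PBS 1 held 105 of the Bcan counts against 2 and 4 in the PBS pair.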
